A study of Mus musculus with 20 samples.

Results

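The respiratory chain genes described here are the 98 protein-coding genes, of 45706 genes counted, that encode subunits of the 4 electron-transfer complexes and of ATP synthase (complex V). They were chosen by symbol: Nduf, Sdh, Uqcr, Cyc1, Cox4 to Cox8 and Atp5 genes of the nucleus, and the mt-Nd, mt-Co, mt-Cytb and mt-Atp genes of the mitochondrial genome. The nucleus carries 85 of them and the mitochondrial genome 13. Nuclear genes number 35 in complex I, 4 in complex II, 9 in complex III, 20 in complex IV and 17 in complex V, and the mitochondrial genome adds 7, 0, 1, 3 and 2. Ndufa4 and Ndufa4l2 are counted with complex IV, of which NDUFA4 is now known to be a subunit. A further 10 genes with matching symbols are not annotated as protein coding and were left out.

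RNA was sequenced from 20 libraries of sorted bone-marrow cells of C57BL/6 mice aged 8 weeks, either Hopx wild type (WT, 11 libraries) or Hopx knockout (KO, 9 libraries). Sorting gave LT-HSC, the long-term haematopoietic stem cells that sustain blood formation (4 WT and 3 KO libraries), and the multipotent progenitors MPP2 (3 WT, 3 KO) and MPP3 (4 WT, 3 KO). The labels give no surface markers of the sort, no knockout allele and no animal for any library, so p-values measure the spread between libraries, some of which may come from 1 animal. HOPX is an atypical homeodomain protein that lacks direct DNA binding.

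Complex I takes electrons from NADH and complex II from succinate, both pass them to ubiquinone, complex III moves them on to cytochrome c, and complex IV gives them to oxygen. Complexes I, III and IV pump protons, and complex V uses the returning protons to make ATP. All complexes but complex II are mosaics of subunits made from nuclear and mitochondrial genes. Resting haematopoietic stem cells are known to rely less on this chain than dividing progenitors do.

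Reads in genes ran from 11163345 to 15189909 per library. Hopx was at 0 in all 9 KO libraries and at 0 to 61.2 normalised reads in the WT libraries, with the 0 in the library labelled WT LT-HSC replicate 4. The LT-HSC marker list summed to 8207 to 15310 in LT-HSC and the MPP3 list to 32673 to 122609 in MPP3, each with its highest median in the population it is named for, but the MPP2 list overlapped between LT-HSC (6814 to 36902) and MPP2 (13852 to 69482). The LT-HSC list was 10746 in WT MPP2 replicate 3 and 10960 in WT MPP3 replicate 2, inside the range of LT-HSC, and the MPP3 list was 56270 in WT MPP2 replicate 3, inside the range of MPP3. The libraries with title numbers 52 to 54 (WT LT-HSC replicate 3, WT MPP2 replicate 3 and WT MPP3 replicate 2) are WT. By Xist and Y-linked transcripts they are the 3 female libraries among the WT, so within WT number and sex cannot be told apart. All other female libraries are KO, so there is no female WT library of another number to compare. WT MPP2 replicate 3 also stood apart in the sum of a list of 7 B-cell genes, at 178226 against 485 to 9445 in the other 19 libraries. Ebf1, 1 of the 7, had no read in any WT MPP2 library. Calls of members that were lost without these libraries are named below.

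Of the 13 mitochondrial genes, 7 were read at high levels in every library and 6 were near 0. The share of each annotated transcript's 50-base stretches that also occur in another annotated gene was 98.0% for mt-Nd3, 98.8% for mt-Nd4l, 99.5% for mt-Atp6, 99.9% for mt-Co3 and 100% for mt-Co2. For each of these 5 the gene sharing most is an unprocessed pseudogene on chromosome 1, a copy of mitochondrial DNA in the nuclear genome. The copy of mt-Co3, Gm28437 at chr1:24613189-24613971 (GRCm38), matches it in 783 of 783 aligned bases. Bases 362 to 421 of both transcripts (GENCODE M21) are shown because a read from them could come from either gene; there is no difference to mark.
mt-Co3: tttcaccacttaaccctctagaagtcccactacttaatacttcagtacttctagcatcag
Gm28437: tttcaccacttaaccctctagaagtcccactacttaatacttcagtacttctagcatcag

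mt-Co1 shares most with 2 unprocessed pseudogenes. These are Gm29216 on chromosome 1, with 430 shared stretches, and Gm13340 at chr2:22588103-22589647, with 411. Gm13340 had 10 to 74 reads per library and was not aligned here. Gm29216 covers only part of mt-Co1 and differs from it in 6 of 492 aligned bases. All 6 lie in the stretch below, bases 1054 to 1113 of mt-Co1 and 1 to 60 of Gm29216, where capitals mark the bases that differ.
mt-Co1: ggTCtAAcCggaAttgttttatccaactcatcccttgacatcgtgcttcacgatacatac
Gm29216: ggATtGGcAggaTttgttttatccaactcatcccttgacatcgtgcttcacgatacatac

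mt-Co3, at chrM:8607-9390, encodes the third core subunit of complex IV and had 0 to 29 reads per library. mt-Co2 had 0 to 20 reads, mt-Atp6 0 to 12, and mt-Nd3, mt-Nd4l and mt-Atp8 0 or 1. The first 5 of these are the genes with near-complete copies. mt-Atp8, a short subunit of complex V whose gene overlaps the start of mt-Atp6, shares 0% of its stretches with an annotated gene. The copies were low as well: Gm28437 had 2 to 12 reads and Gm28661, the copy of mt-Co2, 0 to 9. Alignments that were not unique made up 52.6 to 57.8% of all entries of the count table, and the part of shared sequence in the low values was not tested.

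The other 7 mitochondrial genes were mt-Nd1, mt-Nd2, mt-Nd4, mt-Nd5 and mt-Nd6 of complex I, mt-Cytb of complex III and mt-Co1, the catalytic subunit of complex IV. Their lowest library had 6385 reads (mt-Nd6) and their highest 153520 (mt-Cytb). mt-Cytb, mt-Nd1 and mt-Nd6 share 0% of their stretches, mt-Nd5 7.61%, mt-Nd2 8.19%, mt-Co1 51.1% and mt-Nd4 62.2%. Shared stretches can change the count of a gene, so levels of such genes are uncertain when compared between genes. The plot of mitochondrial genes in genome order sets each gene's values above its share.

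**Figure D1:**
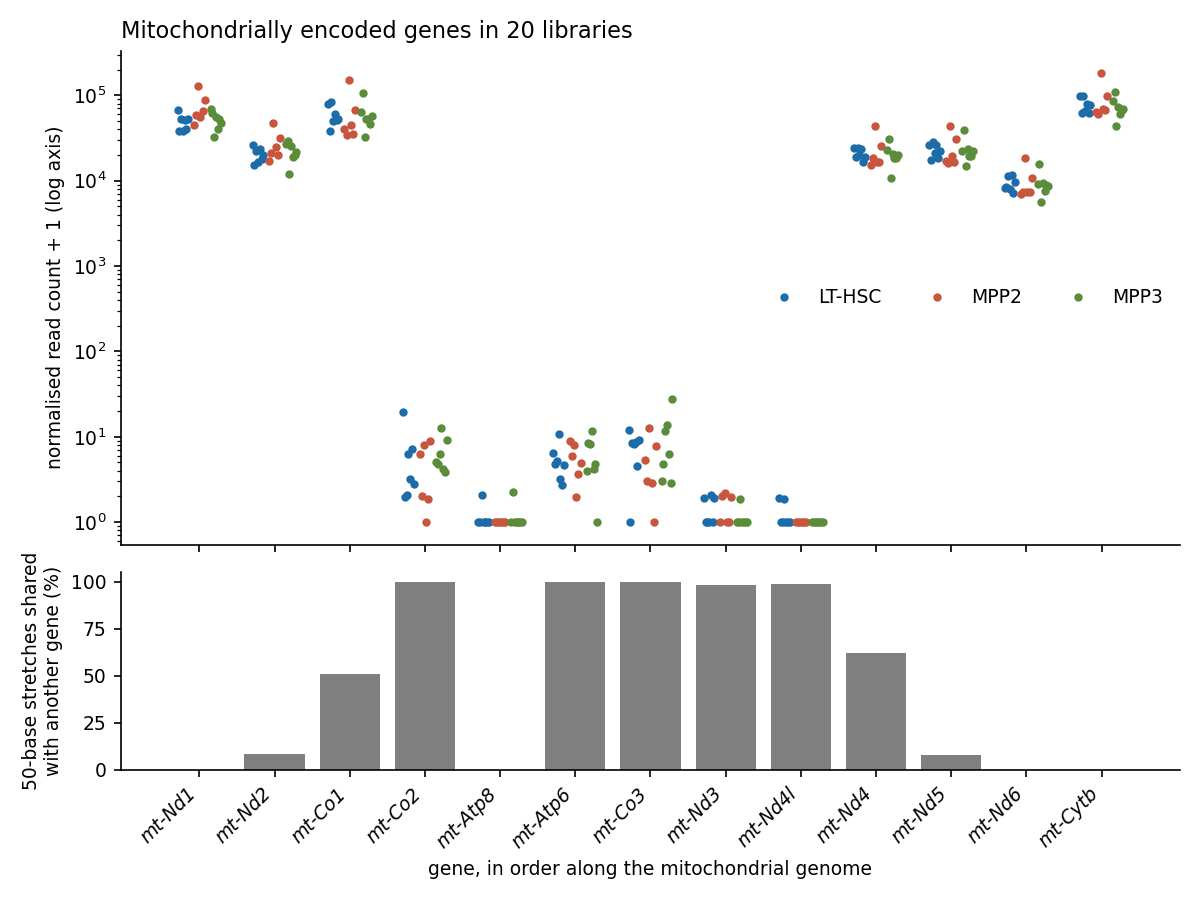
Normalised read count plus 1 (log axis) of the 13 mitochondrial genes in 20 libraries, 1 point per library coloured by population, above the percentage of each transcript's 50-base stretches that occur in another annotated gene. The 5 genes with shares of 98.0% or more, and mt-Atp8 with 0%, have at most 29 reads, and the other 7 have at least 6385.

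Nuclear genes have copies too. Of the 85, 40 share no stretch with another annotated gene, the median share is 0.630%, and 14 share 25% or more. Atp5l, a membrane subunit of complex V, shares 84.8% and had 61 to 136 reads, and Cox7c, a small subunit of complex IV, shares 27.9% and had 78 to 304. A set of 3 genes had no read in any library: Cox7b2, Cox8b and Cox8c, of which the first and last are known mainly from testis and Cox8b from heart and muscle. With Ndufa4l2 (0 to 13 reads) and 5 of the 6 low mitochondrial genes, 9 of the 98 did not pass edgeR's filter on low counts, so 89 were tested, 81 nuclear and 8 mitochondrial. The eighth mitochondrial gene, mt-Co3, passed with at most 29 reads and is left out of the mitochondrial ranges below.

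Levels can be compared between genes per kb of transcript. Here this is the mean over 20 libraries of the normalised read count per kb of the longest principal transcript annotated. Atp5b, the catalytic beta subunit of ATP synthase, led the nuclear genes at 15250 per kb, followed by Ndufa4 at 14913. The highest of complex III was Uqcr10 at 10116, of complex I Ndufa3 at 7452 and of complex II Sdhd, a membrane anchor, at 5465. Genes with shared stretches are among those ranked here. The lowest tested in each complex were Cox7a1 (25.5), Atp5g2 (40.2), Ndufb2 (301), Sdhc (749) and Uqcrq (1911). These ranks depend on the length used, which was 4371 bases for Ndufb2 and 3171 for Sdhc. The median member of complex IV stood at 5871 per kb, against 4498 in complex III, 3863 in complex V, 3166 in complex II and 3125 in complex I. Among mitochondrial genes with no shared stretch, mt-Cytb stood at 69392 per kb and mt-Nd1 at 59645.

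The summed value of the 85 nuclear genes was highest in MPP2. It was 314054, 300534, 268200 and 260161 in WT LT-HSC, and 301000, 315250 and 298579 in KO LT-HSC. In WT MPP2 it was 328554, 396105 and 359366, and in KO MPP2 361949, 387365 and 365049. Every MPP2 library was therefore above every LT-HSC library on the deposited scaling. As a percent of all values in genes the sum overlapped, at 2.03 to 2.45 in LT-HSC and 2.33 to 3.00 in MPP2, with WT MPP2 replicate 3 the lowest of MPP2. In WT MPP3 it was 346875, 278935, 314901 and 303881, and in KO MPP3 316232, 347465 and 302506, which overlapped both other populations. Title numbers fall in 4 runs that each hold all 3 populations. Within each of the 4 runs every MPP2 library was above every LT-HSC and every MPP3 library on both scalings. MPP3 was above LT-HSC in 4 of 4 runs on the deposited scaling and in 2 of 4 as a percent of all values. The mean ± SD was 293968 ± 21514 (n = 7) in LT-HSC, 366398 ± 23771 (n = 6) in MPP2 and 315828 ± 24655 (n = 7) in MPP3. The values are relative within a library. A higher sum can come from more cells that express the genes, more of their RNA per cell or lower levels of other genes. In these bulk samples these cannot be told apart.

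Each complex had a higher mean sum in MPP2. On the deposited scaling, only in complexes IV and V was every MPP2 library above every LT-HSC library. The lowest MPP2 library and the highest LT-HSC library stood at 95270 and 95803 in complex I. The same 2 values were 20212 and 21110 in complex II and 35389 and 36309 in complex III. They were 63488.6 and 61159.5 in complex IV and 105023 and 104231 in complex V. As a percent of all values in genes complex V overlapped, with WT MPP2 replicate 3 below KO LT-HSC replicate 2. Relative to LT-HSC of the same genotype, the summed nuclear values of complex IV were 1.40 times as high in WT MPP2 and 1.28 times in KO MPP2. The same ratios were 1.25 and 1.21 for complex V, 1.25 and 1.23 for complex III, 1.22 and 1.18 for complex I, and 1.21 and 1.26 for complex II. In MPP3 they ran from 1.01 (complex I, KO) to 1.17 (complex IV, WT). Complex IV had the highest of the 5 ratios in each of these 4 comparisons, and the difference between complexes was not tested.

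The mitochondrial sum did not separate the populations. Over the 13 genes it was 258725 ± 52043 (SD, n = 7) in LT-HSC, 308704 ± 157992 (n = 6) in MPP2 and 257318 ± 74729 (n = 7) in MPP3. The log2 ratio of the mitochondrial to the nuclear sum was 0.07, -0.60, 0.26 and -0.24 in WT LT-HSC, and -0.13, -0.56 and -0.23 in KO LT-HSC. It was -0.68, -0.87 and 0.77 in WT MPP2, and -0.61, -0.76 and -0.05 in KO MPP2. It was -0.21, 0.49, -1.04 and -0.23 in WT MPP3, and -0.54, -0.57 and -0.30 in KO MPP3. The spread among libraries was widest in WT MPP2 and WT MPP3, where the SD was 0.90 and 0.63.

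The highest value in each WT group belonged to the library numbered 52 to 54. Their ratios averaged 0.51 ± 0.26 (SD, n = 3), against -0.45 ± 0.31 (n = 17) in the other libraries. Female KO libraries ran from -0.61 to -0.05 and male WT libraries from -1.04 to 0.07. The part of sex or genotype in the ratio was not tested. Mitochondrial genes made up 2.42 to 3.97% of all values in the 3 libraries numbered 52 to 54 and 1.17 to 2.52% in the others. Without WT MPP2 replicate 3 the mean ratio of WT MPP2 was -0.78 in place of -0.26. The plot of sums by library marks these 3 as squares.

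**Figure D2:**
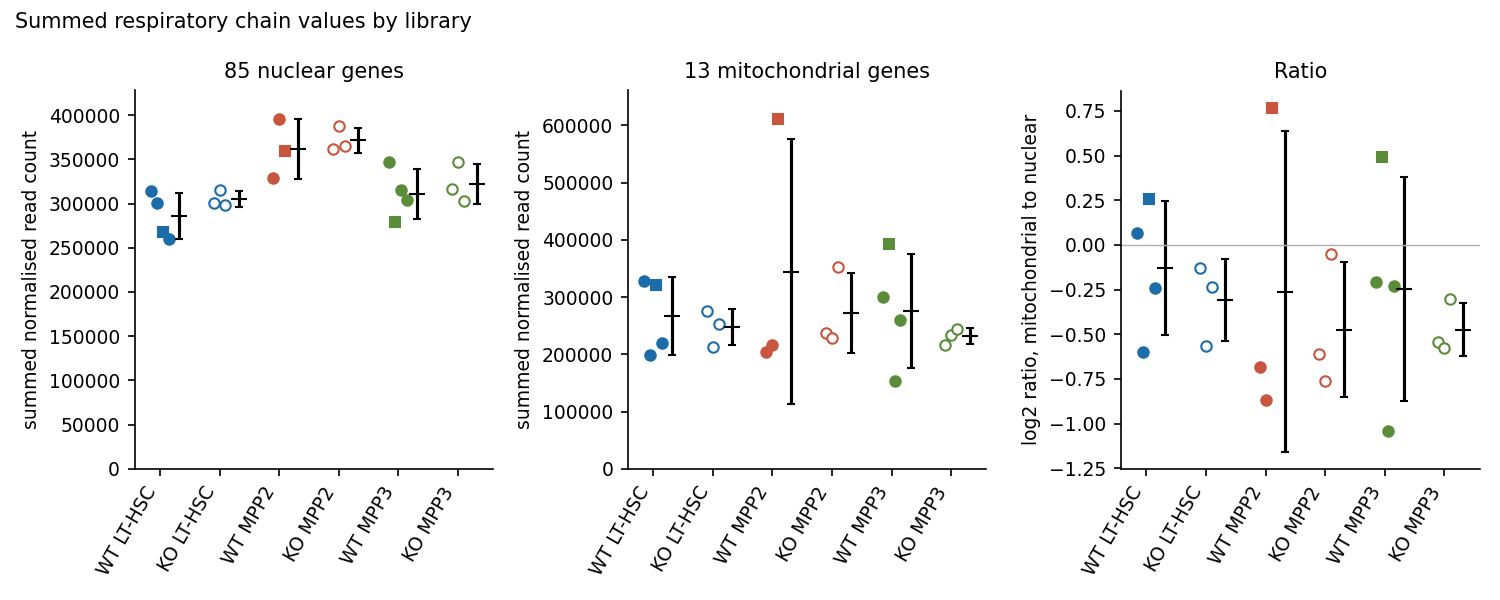
Summed normalised read counts of the 85 nuclear and 13 mitochondrial genes and the log2 ratio of the mitochondrial to the nuclear sum, by group; filled points are WT, open points KO, squares the libraries numbered 52 to 54, and bars the mean ± SD. On this deposited scaling the nuclear sum is at least 328554 in the MPP2 libraries and at most 315250 in the LT-HSC libraries, while the mitochondrial sum overlaps between all groups.

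The next comparison asked which members differ between MPP2 and LT-HSC, as the mean of the WT and the KO difference. Calls were most numerous in complex IV: Cox5a, Cox5b, Cox6a1, Cox6b1, Cox6c, Cox7a2, Cox8a and Ndufa4 were higher in MPP2, and Cox4i2, an isoform subunit, was lower. With them Atp5e, Atp5g3, Atp5h, Atp5k and Atp5o of complex V rose, Uqcr10, Uqcr11 and Uqcrq of complex III, Sdhb of complex II and Ndufa1 of complex I. Called means an adjusted p under 0.05 by limma with Benjamini-Hochberg adjustment over all 17160 genes tested. By this rule 19 of 89 members differed, 18 of them higher, where 7.32% of all genes tested were called in either direction and 2.24% were called higher. Fold changes of the 18 ran from 0.34 to 0.66 on the log2(value + 1) scale, 1.26 to 1.58 times.

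Cox5a, a nuclear subunit of the core region of complex IV at chr9:57521274-57532426, was called in every fit tried of this difference. Its normalised read counts were 6395, 5262, 4252 and 4251 in WT LT-HSC and 5431, 5947 and 6214 in KO LT-HSC. They were 7036, 8883 and 8879 in WT MPP2 and 8371, 8660 and 9384 in KO MPP2, so that no MPP2 library overlapped an LT-HSC library. The log2 fold change was 0.66 ± 0.11 (SE), with a limma adjusted p of 0.00217, and the call held in each of the 20 fits that left out 1 library and under the 11 other settings tried. Gm26631, a gene on the other strand that overlaps Cox5a by 1140 bases, stood at 2008 to 3640 in LT-HSC and 3701 to 5741 in MPP2. Nextera XT libraries do not mark strand, so reads in the overlap cannot be told apart.

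A further 6 members had every MPP2 library above every LT-HSC library, and 0.828% of all genes did so, on the deposited scaling. As a percent of all values in genes, only Cox5a and Atp5o of these 7 did not overlap. Cox5b, a zinc-binding subunit of complex IV, ranged from 996 to 1385 in LT-HSC and from 1487 to 2091 in MPP2 (log2 fold change 0.50 ± 0.13 SE, limma adjusted p 0.0246). Uqcrq, a small subunit of complex III, ranged from 1938 to 2901 and from 3067 to 4174 (0.53 ± 0.13, limma adjusted p 0.0214). Atp5k, a membrane subunit of complex V, ranged from 836 to 1344 and from 1396 to 1905. None of these 3 subunits carries a redox centre.

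The others were Cox6b1 (5448 to 7049 in LT-HSC, 7143 to 8879 in MPP2), Uqcr11 (2601 to 3239 and 3257 to 4777) and Atp5o (2532 to 3034 and 3341 to 4301). Atp5o, which joins the head of ATP synthase to its stalk, rose by 0.44 ± 0.10 on the log2 scale (SE; limma adjusted p 0.0118) and kept its call in the 20 fits that left out 1 library but not with edgeR on 18 libraries (adjusted p 0.0524). A second annotated gene of the same symbol overlaps it and shares 50.3% of its stretches, so its count is uncertain.

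A set of 13 subunits, most of them from the redox or catalytic cores, was looked up in each comparison. Of these, 3 were called in MPP2 minus LT-HSC: Cox5a, Cox5b and Sdhb, the iron-sulfur subunit of complex II (0.35 ± 0.09 SE, limma adjusted p 0.0197). All 13 had a positive fold change, with a median of 0.35 and a range of 0.12 to 0.66. Ndufv1, the NADH-binding subunit of complex I, had 0.45 (limma adjusted p 0.0983), Cyc1, cytochrome c1 of complex III, 0.42 (0.207), and Uqcrfs1, the Rieske iron-sulfur protein, 0.39 (0.136). Ndufs1 had 0.38 (0.187) and Sdha, the flavoprotein of complex II, 0.23 (0.258). Atp5b had 0.35 (0.0911), Atp5c1 0.19 (0.223), Cox4i1 0.18 (0.278), Uqcrc1 0.13 (0.586) and Atp5a1 0.12 (0.55), so none of these 10 passed.

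Most members lay on the same side without passing. Of the 81 nuclear genes, 75 had a positive log2 fold change, against 42.1% of all genes tested. Their median was 0.29, where the median of all genes was -0.11. By complex the nuclear median was 0.44 in IV, 0.39 in III, 0.34 in V, 0.30 in II and 0.25 in I. Complex I, with 35 genes, had 34 positive values and 1 call, Ndufa1, a small subunit needed for assembly (0.47 ± 0.14 SE, limma adjusted p 0.0428). Leaving out 1 library ended its call in 15 of 20 fits, and so did 5 of 11 other settings, with adjusted p up to 0.156. With library totals in place of the deposited scaling the median of all genes moved to -0.19 and that of the nuclear members to 0.21, and 5 members were called higher and 1 lower in place of 18 and 1.

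For the 7 well-read mitochondrial genes the log2 fold changes ran from -0.11 (mt-Co1) to 0.54 (mt-Nd1), with a median of 0.03. None passed, and the smallest adjusted p by limma was 0.162, for mt-Nd1. The standard errors were 0.22 to 0.32, against a median of 0.13 for nuclear members, so changes of the size seen in nuclear genes were not detectable here. Within a library mt-Nd5 was lower relative to mt-Nd1 in MPP2: the log2 ratio of mt-Nd5 to mt-Nd1 was -1.36 to -0.84 in LT-HSC, -1.98 to -1.43 in MPP2 and -1.64 to -0.64 in MPP3. LT-HSC and MPP2 did not overlap in this ratio, which was chosen after its values were seen and was not tested.

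**Figure D3:**
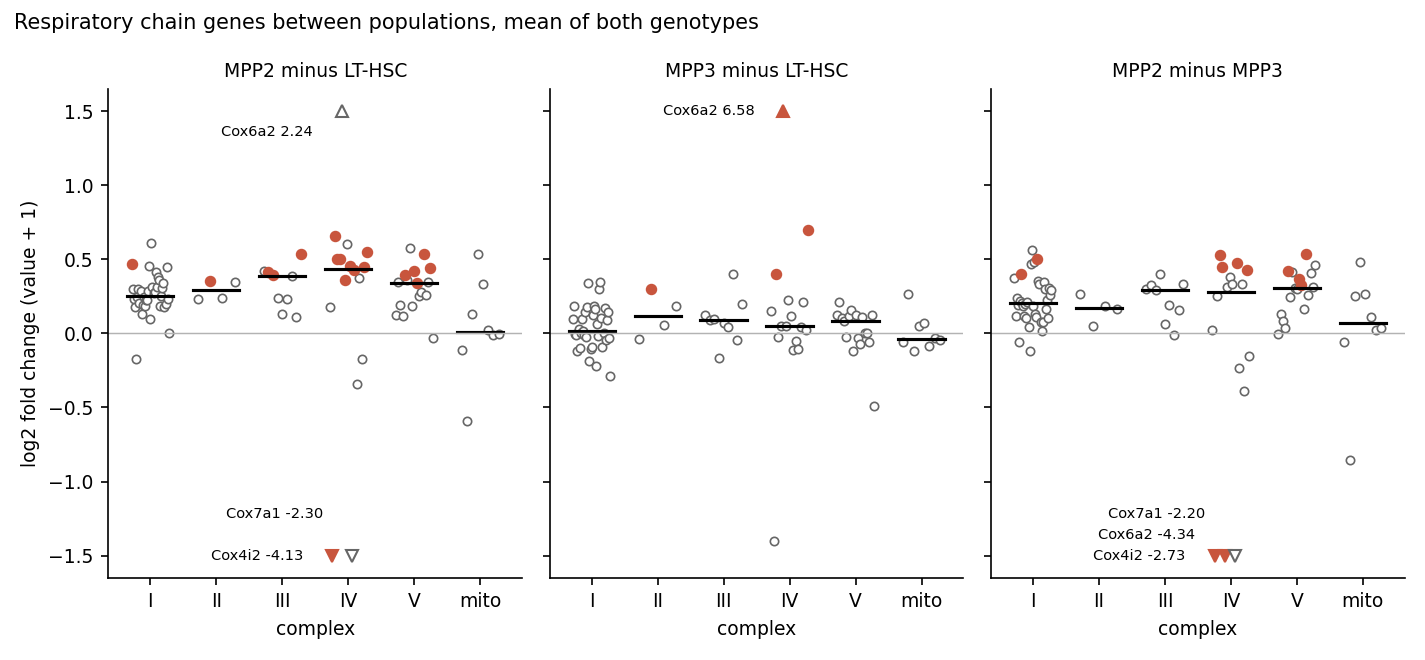
Log2 fold change of each tested member between populations, mean of both genotypes, by complex for nuclear genes and together for mitochondrial genes (mito); filled points passed at an adjusted p under 0.05, black bars are medians, and triangles stand for values beyond the axis, with their size. In MPP2 minus LT-HSC 75 of 81 nuclear points are above 0, and in MPP3 minus LT-HSC they spread around 0.

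The WT and KO differences share no library and can be read against each other. In WT alone 1 member was called in MPP2 minus LT-HSC, Cox5a (log2 fold change 0.73 ± 0.15 SE, limma adjusted p 0.0282), where 0.833% of all genes were called. That call was lost without WT LT-HSC replicate 2, 3 or 4, without WT MPP2 replicate 2 or 3, without the libraries numbered 52 to 54, and with edgeR on 20 and on 18 libraries (adjusted p up to 0.194). In KO alone 1 was called, Cox4i2, where 1.2% were. Of the 81 nuclear members, 73 were higher in MPP2 in both genotypes and 5 lower in both, and of all 17160 genes 4740 and 6865. Nuclear medians were 0.34 in WT and 0.29 in KO.

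The number of calls rested on single libraries. It was 5 without WT MPP2 replicate 2, 7 without WT LT-HSC replicate 3 or replicate 4, 8, 10 and 11 without KO LT-HSC replicate 3, 2 and 1, and 12 without KO MPP2 replicate 3. It was 22 without WT MPP2 replicate 3, 16 without the 3 libraries numbered 52 to 54 and 30, 27 higher and 3 lower, with the runs of library numbers as a covariate. Without the libraries numbered 52 to 54 the calls of Atp5g3, Atp5h, Cox5b, Cox6c, Cox7a2, Ndufa1 and Ndufa4 were lost, and without WT MPP2 replicate 3 those of Cox7a2, Ndufa1 and Ndufa4. Markers of some other cells moved with the populations as well. The summed list of 9 dividing-cell genes was 14370 to 29352 in LT-HSC, 33715 to 45952 in MPP2 and 16256 to 33172 in MPP3, so MPP2 and LT-HSC did not overlap in it, nor did they as a percent of all values in genes. An erythroid list of 8 genes was 775 to 22481 in LT-HSC and 3629 to 73485 in MPP2, with none of its genes at 0 throughout. A neutrophil list of 7 genes was high in single libraries of all 3 populations. It was 17077 in WT LT-HSC replicate 2, 24837 in KO LT-HSC replicate 1 and 8026 in WT MPP2 replicate 2. In WT MPP3 replicates 2 and 3 it was 25163 and 19254, and in every other library at most 976. The part of any of these lists in the result was not tested.

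MPP3 differed from LT-HSC in few members. Cox5a, Sdhb, Ndufa4 and Cox6a2 were called higher, 4 of 89 members where 7.4% of all genes tested were called in either direction and 3.22% were called higher. The nuclear median was 0.06, and all genes had a median of 0.00. Cox5a was higher by 0.40 ± 0.11 on the log2 scale (SE; limma adjusted p 0.0243) and Sdhb by 0.30 ± 0.08 (0.0319). Both calls were lost without 1 of several libraries, that of Sdhb also without the libraries numbered 52 to 54, and the number fell to 2 without WT LT-HSC replicate 3 or 4, KO LT-HSC replicate 1, WT MPP3 replicate 1 or KO MPP3 replicate 2.

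Ndufa4, at chr6:11900292-11907497, is a subunit of complex IV that was higher in MPP3. It stood at 8972, 5996, 6531 and 5359 in WT LT-HSC and at 7836, 6190 and 5682 in KO LT-HSC. In WT MPP3 it was 10299, 12407, 12683 and 9473, and in KO MPP3 9660, 10462 and 10371. No MPP3 library overlapped an LT-HSC library, which held for 2.06% of all genes in this direction. The log2 fold change was 0.70 ± 0.16 (SE; limma adjusted p 0.00795), and the call held in the 20 fits that left out 1 library and under the 11 other settings. In WT alone it was 0.76 ± 0.20 (limma adjusted p 0.0451), and that call was lost in 14 of 20 fits without 1 library and without the libraries numbered 52 to 54. MPP2 libraries lay between 7038 and 16727, with the highest in WT MPP2 replicate 3 (0.55 ± 0.16 SE against LT-HSC, limma adjusted p 0.0475). Leaving out 1 library ended the call in MPP2 in 15 of 20 fits, that without WT MPP2 replicate 3 among them, and it was also lost without the libraries numbered 52 to 54, with edgeR and with no filter, and the log2 fold change was as low as 0.39.

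Cox6a2 encodes the isoform of a complex IV subunit known from heart and skeletal muscle, and Cox6a1 the form of other tissues. Cox6a2, at chr7:128205435-128206387, had no read in any of the 7 LT-HSC libraries. It stood at 568, 388, 240 and 157 in WT MPP3 and at 39.9, 60.4 and 9.99 in KO MPP3. In WT MPP2 it was 0, 3.00 and 255, the last in replicate 3, and in KO MPP2 0, 9.77 and 0. Set against a floor of 3 reads over the 7 LT-HSC libraries, the mean of MPP3 was at least 510-fold higher than that of LT-HSC. Its limma adjusted p was 0.000204 for MPP3 minus LT-HSC and 0.0139 for MPP2 minus MPP3, where the fitted log2 fold change was -4.34 ± 0.99 (SE). The first call held in every fit tried, and the second was lost with DESeq2 and with edgeR on 20 and on 18 libraries. Itgad, on the other strand and overlapping it by 953 bases, had at most 14 reads in any library. The list of B-cell genes was 4780 to 9445 in WT MPP3, 3132 to 5411 in KO MPP3 and 178226 in WT MPP2 replicate 3. This list was 3475 in KO LT-HSC replicate 1, which had no read of Cox6a2. Within WT MPP3 the order of the libraries differed between the list and Cox6a2. The part of B-cell genes in the result was not tested. Cox6a1 stood between 3345 and 8012 in every library, above Cox6a2 throughout.

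Cox4i2, the isoform of the largest nuclear subunit of complex IV that is known to be tied to low oxygen, ran the other way. At chr2:152754173-152765037, it stood at 42.1, 41.8, 32.9 and 62.5 in WT LT-HSC and at 33.8, 96.6 and 64.4 in KO LT-HSC. In WT MPP2 it was 0, 7.005 and 22.4, and in KO MPP2 0, 2.66 and 0. In WT MPP3 it was 25.2, 17.6, 45.4 and 38.8, and in KO MPP3 10.5, 16.1 and 9.09. All MPP2 libraries were below all LT-HSC libraries, as were 1.77% of all genes. The fitted log2 fold change of MPP2 minus LT-HSC was -4.13 ± 0.64 (SE; limma adjusted p 0.00131), and -5.30 ± 0.93 (0.01) in KO alone, a call lost with edgeR and with voom. With edgeR on 18 libraries the call of the mean difference was lost too. These folds depend on the added 1, as several libraries are at 0. The abundant isoform Cox4i1 stood between 7820 and 11946 in every library, with a log2 fold change of 0.18 (limma adjusted p 0.278).

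**Figure D4:**
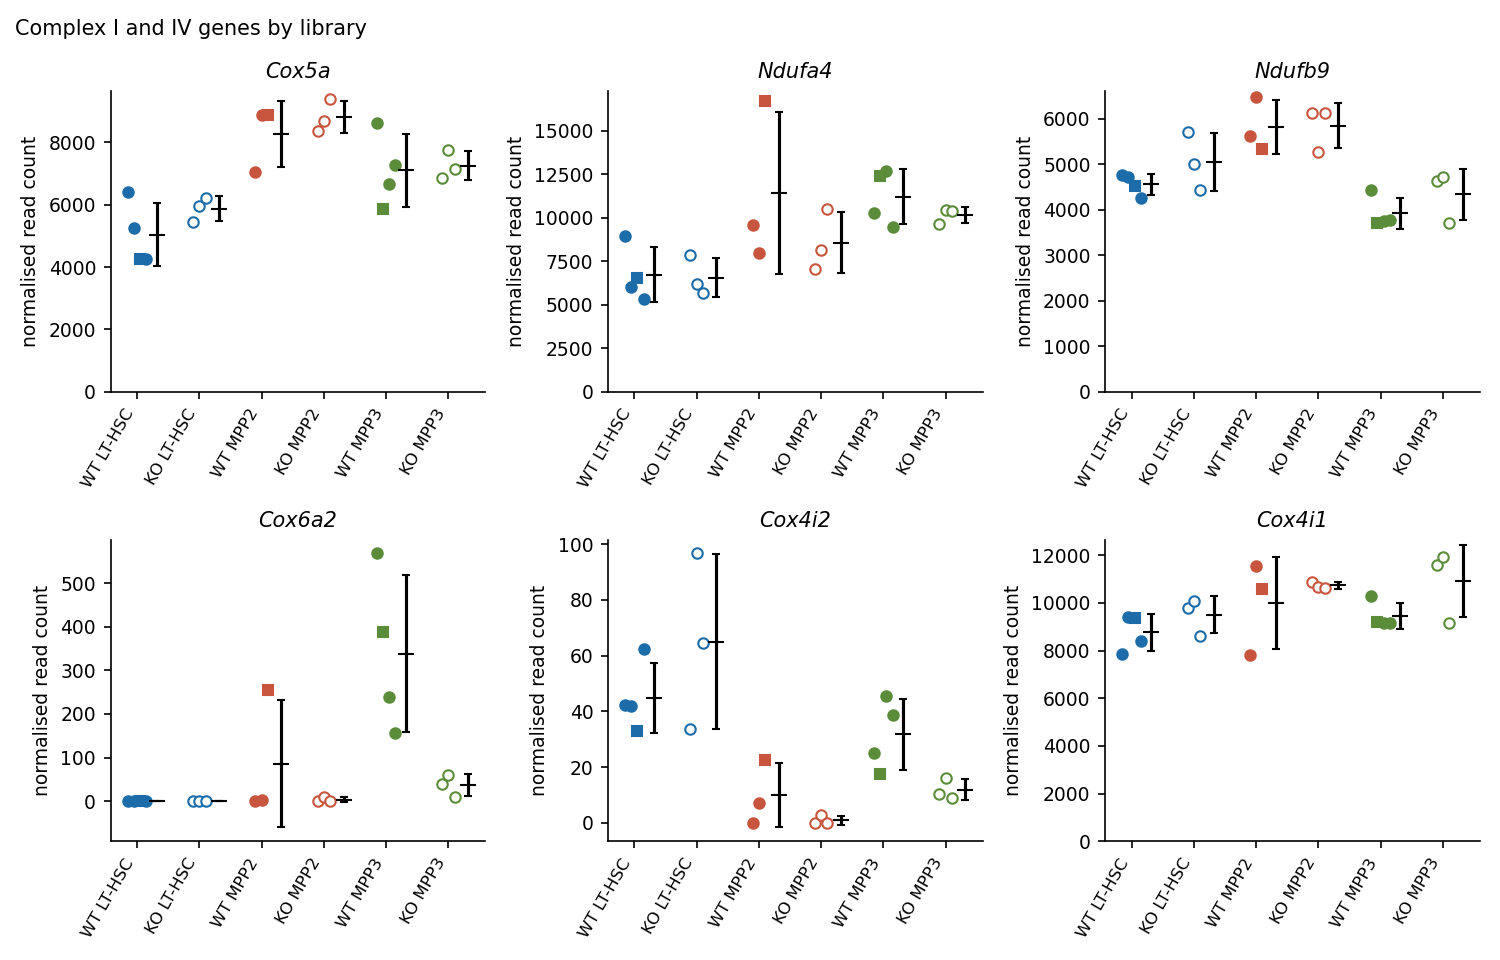
Normalised read counts by library for Cox5a, Ndufa4, Ndufb9, Cox6a2, Cox4i2 and Cox4i1; filled points are WT, open points KO, squares the libraries numbered 52 to 54, and bars the mean ± SD. Cox6a2 is at 0 in all 7 LT-HSC libraries, and Cox4i2 is at least 32.9 in each of them and at most 22.4 in each MPP2 library.

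Other isoform sets were uneven in level, and in MPP2 minus LT-HSC the abundant forms Cox7a2, Cox6b1 and Atp5g3 were called higher. Cox7a1, the muscle form of another complex IV subunit, stood between 0 and 30.9 against 3090 to 6372 for Cox7a2, with a difference of -2.30 ± 0.76 on the log2 scale in MPP2 minus LT-HSC (SE; limma adjusted p 0.0749). Cox7a2l, which helps complexes III and IV to join in supercomplexes, had -0.34 ± 0.15 (0.184). Cox6b2, known from testis, stood between 434 and 1532, with 0.60 ± 0.205 (0.0818). Of the 3 genes for the same ring subunit of ATP synthase, Atp5g3 had means of 7243 to 10423 over the 6 groups, Atp5g1 705 to 1181 and Atp5g2 20.1 to 48.9.

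MPP2 exceeded MPP3 in 10 members and was lower in Cox4i2 and Cox6a2. The 12 calls among 89 compare with 6.88% of all genes called in either direction and 2.24% called higher. Those higher were Ndufb9 and Ndufa3 of complex I, Cox5b, Cox6a1, Cox7a2 and Cox8a of complex IV, and Atp5e, Atp5h, Atp5j and Atp5k of complex V, by 0.32 to 0.54 on the log2 scale. Of the 81 nuclear members 71 had a positive value, against 43.4% of all genes, and the median was 0.24, where all genes had -0.09. The number fell to 3 without KO MPP3 replicate 3, 4 without WT MPP2 replicate 2 and 6 without KO MPP3 replicate 1. Without the libraries numbered 52 to 54 the calls of Atp5j, Cox7a2 and Ndufa3 were lost, and without WT MPP2 replicate 3 that of Atp5j.

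Ndufb9, a membrane-arm subunit of complex I at chr15:58933756-58939488, kept its call in the 20 fits that left out 1 library and under the 11 other settings. It stood at 5618, 6471 and 5330 in WT MPP2 and at 6122, 5270 and 6129 in KO MPP2. In WT MPP3 it was 4422, 3717, 3755 and 3771, and in KO MPP3 4620, 4710 and 3699. No MPP2 library overlapped an MPP3 library, which held for 0.956% of all genes in this direction, and the log2 fold change was 0.50 ± 0.09 (SE; limma adjusted p 0.00293). LT-HSC, at 4256 to 5698, overlapped both. As a percent of all values in genes MPP2 and MPP3 overlapped in it over all libraries and in 0 of the 4 runs.

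Within WT, 0 of 89 members were called between MPP2 and MPP3 by limma (0 by edgeR and 3 by DESeq2), where 0.431% of all genes were, and 25 had an unadjusted p under 0.05, where 9.57% of all genes did. Within KO, 0 were called by limma (0 by edgeR and 2 by DESeq2), where 2.79% of all genes were, and 20 had an unadjusted p under 0.05, where 17.5% did. In KO MPP3 minus KO LT-HSC 0 were called by limma (0 by edgeR and 1 by DESeq2), where 1.91% of all genes were, and 4 had an unadjusted p under 0.05, where 10.6% did. In WT MPP3 minus WT LT-HSC Ndufa4 and Cox6a2 were called, where 3.97% of all genes were.

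Loss of Hopx was compared with WT in each population. Sex was uneven here, with 2 of 3 libraries female in every KO group. In WT it was 1 of 4 in LT-HSC and in MPP3, and 1 of 3 in MPP2. KO minus WT is thus partly a contrast of sex. The part of sex in the signs and fold changes below was not tested. By limma, edgeR and DESeq2, 0 of 89 members were called in LT-HSC, in MPP2, in MPP3 or on average over the 3 populations, and 0 for a KO effect that differs between populations. Of all 17160 genes, 0.00583% were called in LT-HSC, 0.0117% in MPP2, 0.00583% in MPP3 and 0.0117% on average. At an unadjusted p under 0.05 the members numbered 1 in LT-HSC, 0 in MPP2, 1 in MPP3 and 3 on average, where 2.66%, 7.88%, 2.02% and 5.03% of all genes passed.

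The member of smallest p in LT-HSC was Cox6b2, at 569, 434, 557 and 625 in WT and 1173, 1132 and 585 in KO. The groups overlapped, and the log2 fold change was 0.76 ± 0.28 (SE; limma adjusted p 1). In MPP3 it was Cox6a2, with all 3 KO libraries below all 4 WT libraries, as for 1.82% of all genes, and a fitted difference of -3.32 ± 1.36 on the log2 scale (limma adjusted p 1). In MPP2 it was Cox4i2, -1.89 ± 0.93 (limma adjusted p 0.649). Next came Ndufa10 and Cox6c in LT-HSC, Ndufs8 and Ndufa9 in MPP2, and Cox6b2 and Uqcrc1 in MPP3, with values of 0.25 to 0.56. On average over the populations the smallest p belonged to Cox6b2 (0.45 ± 0.165), Cox6a2 (-1.84 ± 0.80) and Ndufa10 (0.23 ± 0.10), each with a limma adjusted p of 0.857.

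In sign, 64 of 81 nuclear members were higher in KO LT-HSC, 46 in KO MPP2 and 62 in KO MPP3, against 46.7%, 40.9% and 53.7% of all genes. The ratios of the summed nuclear values, KO to WT, lay between 0.99 and 1.11 for every complex in every population. The 7 mitochondrial genes had log2 fold changes of -0.15 to 0.06 in LT-HSC, -0.32 to -0.01 in MPP2 and -0.22 to -0.08 in MPP3, with standard errors of 0.307 to 0.465. Since the WT hold the libraries numbered 52 to 54, their high mitochondrial values enter these differences.

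**Figure D5:**
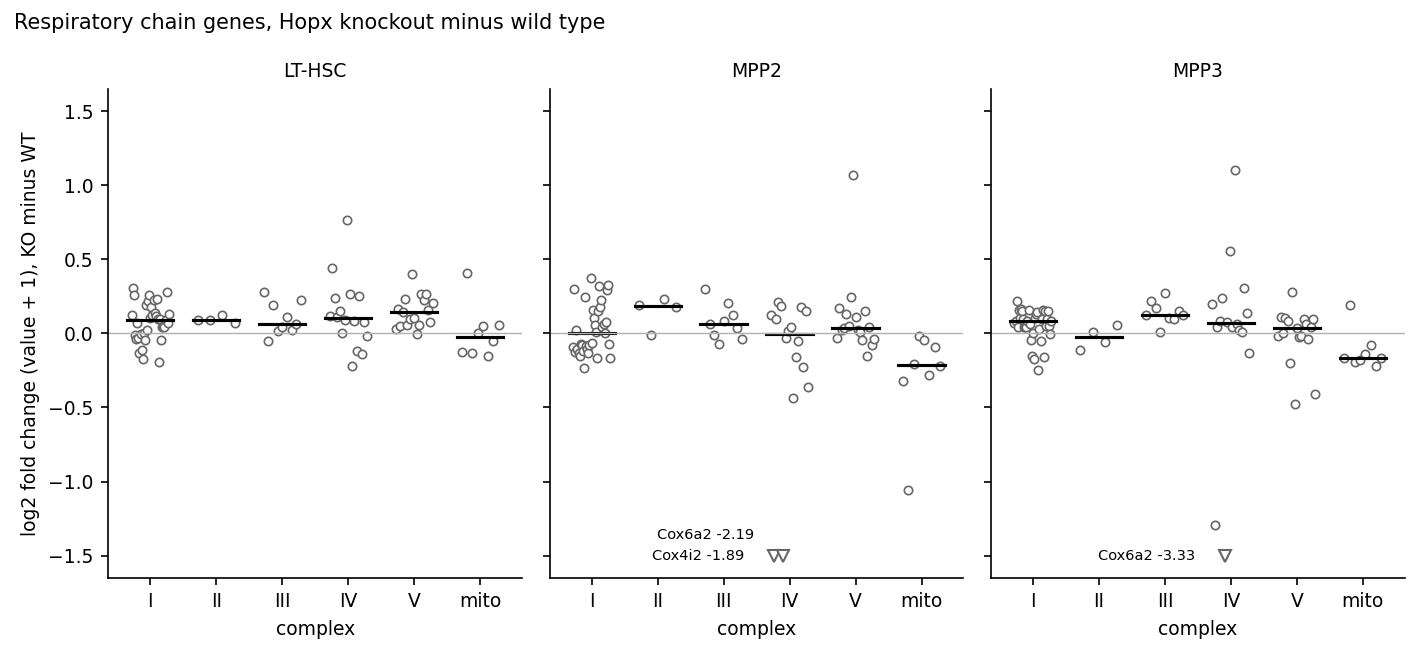
Log2 fold change of each tested member, KO minus WT, in each population, by complex for nuclear genes and together for mitochondrial genes (mito); open points did not pass, black bars are medians, and triangles stand for values beyond the axis, with their size. No point is filled, and the medians lie near 0.

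Genes that build or govern the chain were looked up from 3 lists. Of 46 tested assembly factors of 47, 1 was called higher in MPP2 than in LT-HSC and 0 lower, with a median of 0.08, where 2.24% of all genes were called higher and the median of all was -0.11. It was Taco1, an activator of the translation of mt-Co1, with 16.3 to 109 in LT-HSC, 59.1 to 225 in MPP2 and 72.6 to 304 in MPP3 (1.58 ± 0.43 SE, limma adjusted p 0.0307, and 1.55 ± 0.41, 0.0248, in MPP3). Of 22 tested regulators of 23, 0 were called higher and 1 lower in MPP2, where 7.32% of all genes were called in either direction. That 1 was Ppargc1b, a coactivator of mitochondrial gene programmes, which ranged from 51.3 to 90.1 in WT LT-HSC and from 156 to 188 in KO LT-HSC. Its WT MPP2 libraries stood at 161, 78.1 and 50.8, and its KO MPP2 libraries at 11.4, 11.5 and 0 (-2.32 ± 0.56 SE, limma adjusted p 0.0181, and -5.01 ± 0.82, 0.00579, in KO alone). The WT and KO means ran in opposite directions, from 68.3 in LT-HSC to 96.6 in MPP2 in WT and from 172.7 to 7.66 in KO. Ppargc1b did not pass the limma F test of a KO effect that differs between populations. In MPP2 minus MPP3, Gabpa, an ETS factor of these promoters, was higher (0.46, limma adjusted p 0.0229), though it overlaps Atp5j on the other strand by 701 bases, and Polg2, of the mitochondrial DNA polymerase, lower (-1.32, 0.0425).

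Of the 21 genes of the citric acid cycle and of carriers, 2 were called higher in MPP2 than in LT-HSC and 0 lower, with a median of 0.27, beside the same 2.24% and -0.11 over all genes. Slc25a5, which exchanges ATP and ADP across the inner membrane, stood at 9714 to 13830 in LT-HSC and at 15602 to 20752 in MPP2. It was called in both genotypes apart, with 0.54 ± 0.12 (SE; limma adjusted p 0.0403) in WT and 0.60 ± 0.13 (0.0284) in KO. The other was Atpif1, the inhibitor of ATP synthase run in reverse, with 0.49 ± 0.14 (0.0385). Against MPP3 both were called higher again, with Etfa (0.46) and Etfb (0.57), the carriers of electrons from fatty acid oxidation.

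Promoters of nuclear respiratory chain genes are known for a few shared elements, so promoters were read for 3 motifs on both strands: GCGCA and GCGC with any 1 base between, bound by NRF1, CCGGAAGT, bound by ETS factors, and AAGATGGC, bound by YY1. Windows of 300 bases, 250 before to 50 after the start (RefSeq, GRCm38.p6), were found for 68 of 85 nuclear members. The NRF1 motif was in 25% of them and in 5.19% of all 27025 genes, the YY1 motif in 14.7% and 3.19%, and the ETS motif in 7.35% and 4.31%. The median GC content was 57.3% in members and 52.7% in all windows. Of the 16 members called higher in MPP2 with a window, 5 held the NRF1 motif, 3 the ETS motif and 0 the YY1 motif. A match describes letters and no binding was measured.

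The 4 stretches below are the 250 bases before the start of called members whose motif lies there, in capitals, read 5′ to 3′ on the gene's strand: Cox6a1 (chr5:115348959-115349208, minus strand) with 2 NRF1 motifs, Atp5h (chr11:115419920-115420169, minus) with an NRF1 and an ETS motif, Atp5k (chr5:108434400-108434649, minus) with an NRF1 motif and Uqcr11 (chr10:80406822-80407071, minus) with an ETS motif. Cox5a held none of the 3 in its window.
Cox6a1: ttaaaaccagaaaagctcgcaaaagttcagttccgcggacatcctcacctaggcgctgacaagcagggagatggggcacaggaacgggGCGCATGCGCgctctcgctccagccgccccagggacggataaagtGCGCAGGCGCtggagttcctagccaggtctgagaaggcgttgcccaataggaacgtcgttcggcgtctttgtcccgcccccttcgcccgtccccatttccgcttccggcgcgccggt
Atp5h: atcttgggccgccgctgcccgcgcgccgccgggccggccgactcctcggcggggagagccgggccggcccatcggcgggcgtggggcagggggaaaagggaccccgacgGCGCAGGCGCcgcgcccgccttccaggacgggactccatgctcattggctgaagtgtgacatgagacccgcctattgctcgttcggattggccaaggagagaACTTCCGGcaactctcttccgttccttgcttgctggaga
Atp5k: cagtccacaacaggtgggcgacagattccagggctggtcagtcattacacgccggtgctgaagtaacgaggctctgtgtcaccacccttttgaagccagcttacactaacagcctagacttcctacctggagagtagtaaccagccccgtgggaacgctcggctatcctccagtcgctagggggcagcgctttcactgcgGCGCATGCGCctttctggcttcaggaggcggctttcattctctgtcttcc
Uqcr11: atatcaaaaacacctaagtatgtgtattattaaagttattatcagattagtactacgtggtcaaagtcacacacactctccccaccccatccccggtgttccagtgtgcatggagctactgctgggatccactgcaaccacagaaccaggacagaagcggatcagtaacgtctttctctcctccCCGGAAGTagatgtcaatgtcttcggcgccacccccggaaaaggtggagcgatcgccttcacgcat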

How the data were processed

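RNA from sorted bone-marrow cells was made into libraries with a Nextera XT kit, per the labels' protocols. Per the submitters' processing notes, TopHat2 2.1.1, HTSeq 0.11.2 and DESeq were used with GRCm38. The deposited values are a signal per gene. From the values, they are read counts divided by 1 factor per library: whole reads were recovered for 100% of values, within 1e-06. Annotation release and strand setting: not given in the sources used here. The 5 summary entries of HTSeq were left out of library sizes and tests. Symbols and types were matched by Ensembl ID to GENCODE M21 (45143 genes matched, 563 did not).

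Genes were kept by edgeR 4.0.16 filterByExpr (17160 genes). The main test was limma 3.58.1 (trend, robust; R 4.3.3) on log2(value + 1) over 6 group means and 20 libraries, with Benjamini-Hochberg adjustment over all genes. Fold changes on this scale understate those of low genes. Alternatives were other scalings, pseudocount 16, no filter, voom, edgeR, DESeq2 1.42.0, covariates (runs of title numbers, and sex read from Xist and Y-linked transcripts), and libraries left out. The fit with edgeR on 18 libraries left out WT MPP2 replicate 2 and WT MPP3 replicate 1, so tool and libraries changed together. In it 33 of the 39 calls of members were lost. The members and the gene lists were chosen with earlier results of these data known. Genes named with values were the mitochondrial genes, 13 core subunits (1 more is not reported here), isoform sets, called members and, without calls, the 3 members of smallest p. Shared sequence is the share of a transcript's 50-base stretches found in other annotated transcripts. On simulated data for MPP2 minus LT-HSC (17160 genes, 200 changed), limma recovered 32% of 2-fold and 88% of 4-fold changes with 14 false calls. The changed genes were drawn at random above a low level, with independent noise and no runs of libraries. The 18 members called higher differed by 1.26 to 1.58 times, so these rates do not describe them.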

Additional observations from a re-analysis of the deposited data

Results flagged for a closer look

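In groups of 4 libraries, 10 of 113 sets of values held 1 library far from the other 3, by Dixon's criterion at the 95% level. Chance alone marks about 1 in 20. All are WT, since the KO and MPP2 groups have 3 libraries and were not examined. WT LT-HSC replicate 1 was high in Atp5j (7985 against 5604 to 5705), Cox7b (5865 against 3487 to 3868) and Sdhd (7942 against 4992 to 5315). WT LT-HSC replicate 3 was high in mt-Nd6 (11430 against 7999 to 8456) and Cox7a2l (1934 against 1600 to 1613). WT MPP3 replicate 2 was high in Cox7a2l (2190 against 1233 to 1385) and low in Ndufv1 (2116 against 2768 to 2881). WT MPP3 replicate 1 was high in Cox4i1 (10278 against 9149 to 9215), Cox6c (7067 against 5463 to 5493) and Ndufb9 (4422 against 3717 to 3771). WT LT-HSC replicate 3 and WT MPP3 replicate 2 are among the libraries numbered 52 to 54.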

How the results depend on the processing

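No paired analysis was possible because the labels carry no replicate numbers shared between groups; runs of title numbers, which hold all 3 populations, were fitted as a covariate instead. Of 39 calls of members, 10 were kept in the 20 fits that left out 1 library, 5 under the 11 other settings and 4 under both (Cox5a in MPP2 and Cox6a2 and Ndufa4 in MPP3, against LT-HSC, and Ndufb9 in MPP2 against MPP3), and 0 changed direction. The cause of each change below was not tested. The 19 calls of MPP2 minus LT-HSC became 6 with library totals, 11 with no filter, 30 with voom, 30 with runs of title numbers as a covariate and 2 with edgeR on 18 libraries, an alternative chosen after seeing the data, and were 5 to 24 with 1 library left out. In WT alone the 1 call became 2 with voom, 0 with edgeR, 10 with DESeq2, 5 with runs, 3 with sex, 2 without the libraries numbered 52 to 54 and 0 with edgeR on 18 libraries (0 to 3 with 1 library left out). In KO alone it became 0 with voom, 0 with edgeR, 2 with DESeq2, 3 with runs, 2 without libraries 52 to 54 and 0 with edgeR on 18 libraries. The 4 calls of MPP3 minus LT-HSC became 8 with voom and 2 with edgeR on 18 libraries (2 to 5 with 1 left out). In WT alone 2 became 1 with no filter, 4 with voom, 1 with edgeR, 4 with DESeq2, 1 without libraries 52 to 54 and 0 with edgeR on 18 libraries (1 to 3). In KO alone 0 became 1 with pseudocount 16, 2 with voom, 1 with DESeq2 and 1 without libraries 52 to 54 (0 to 1). The 12 calls of MPP2 minus MPP3 became 7 with edgeR and 2 with edgeR on 18 libraries (3 to 16). In WT alone 0 became 1 with pseudocount 16, 1 with voom, 3 with DESeq2, 1 with sex and 1 without libraries 52 to 54 (0 to 3), and in KO alone 2 with DESeq2 and 1 with runs (0 to 3). The KO comparisons had 0 calls under every alternative run. The mean of log2 values in place of sums gave mitochondrial to nuclear ratios of -1.85 and -2.06 in WT and KO LT-HSC, -2.02 and -2.38 in MPP2, and -1.95 and -2.21 in MPP3. Few libraries per group limit the precision, and counts of genes with copies depend on how shared reads were treated.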
